A study of Mus musculus with 6 samples.

Results

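Langerhans cells and T cells are the resident immune cells of mouse epidermis, and 10 genes of these cells were followed in full-thickness dorsal skin: Cd207, Epcam, Cd3d, Cd3e, Cd3g, Cd247, Lck, Thy1os, Il2rb and Itgae. They were taken by symbol from the gene table, in which 9 of the 10 had a row among 21959 genes, and all 9 were among the 14875 genes tested. Thy1os had no row under that name and was not analysed here. The samples were 6 RNA-seq libraries, each from 1 male C57BL/6 mouse aged 7 weeks whose back was shaved in the resting phase of the hair cycle. In the vehicle group, 3 mice received the solvent alone, which was 30% dipropylene glycol in 70% distilled water. In the rebamipide group, 3 mice received 3% rebamipide on the same area. Both groups were treated daily for 7 days. The comparison asked how these immune genes stood in treated skin beside the keratinocyte level of the same library.

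Langerhans cells are antigen-presenting cells that send dendrites between keratinocytes. They make langerin, the C-type lectin encoded by Cd207, and EpCAM, an adhesion molecule that epithelial cells also carry, so that Epcam is not a gene of Langerhans cells alone. The T cells of mouse epidermis are mainly dendritic epidermal T cells, which carry a gamma-delta receptor, depend on IL-15 signals received through Il2rb and bind E-cadherin of keratinocytes through the integrin chain encoded by Itgae. In every T cell the receptor is held at the surface by the CD3 chains gamma, delta and epsilon (Cd3g, Cd3d, Cd3e) and the zeta chain (Cd247), and the kinase encoded by Lck phosphorylates those chains when the receptor is engaged.

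None of the 9 genes passed the test at an adjusted p-value under 0.05 (edgeR's quasi-likelihood test with Benjamini-Hochberg adjustment), against 14.1% of all genes higher and 6.51% lower in rebamipide skin. Cd3g had the lowest fitted fold change of the T cell genes, with 7.44 ± 4.06 CPM (counts scaled to library size by the TMM method) in vehicle skin and 2.21 ± 1.43 in rebamipide skin (SD, n = 3 each). Cd207 and Epcam had fitted log2 fold changes of -2.08 and -2.61 beside -2.37 for Krt14, the keratin of basal keratinocytes. None of these passed the test, Cd207 overlapped between the groups, and all 3 were at or near 0 in rebamipide replicate 3. Cd247 was the only one of the 9 with a fitted change above 0. Relative to Krt14 in the same library, 5 of the 9 were higher in every rebamipide library, against 58.5% of all genes. Krt14 had 0 counts in rebamipide replicate 3, set to 3 here, so that ratio is only a bound. Without that library the count was also 5.

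The rebamipide libraries differed from the vehicle libraries in many other ways. Total counts were 38676018 to 39915276 in vehicle and 32709801 to 34706852 in rebamipide libraries. Mitochondrial genes took 2.59% to 5.36% of counts in vehicle and 13.3% to 21.96% in rebamipide libraries. Ucp1, the uncoupling protein of brown fat, had 0 counts in each vehicle library and 81048 to 220449 in the rebamipide libraries. The summed level of 10 basal keratinocyte genes was 2721 to 4407 CPM in vehicle and 248 to 1334 CPM in rebamipide libraries. Rebamipide replicate 3 stood apart, with 0 counts of Krt14 and 4 of Krt5, so the markers that define epidermis were absent or nearly so from a library labelled as skin. The 8 fast muscle genes summed to 5428 to 26873 CPM in vehicle and 34220, 7158 and 276 CPM in rebamipide libraries, the 5 red blood cell genes to 42.4 to 199.9 CPM and 345 to 809 CPM, and the 8 housekeeping genes to 4581 to 5016 CPM and 3216 to 4717 CPM. In bulk tissue, fewer cells of a type and less RNA per cell cannot be told apart, and the part of tissue makeup in the results was not tested.

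Of the 4 CD3 genes, Cd3g, Cd3d and Cd3e lie side by side. In the table's coordinates, which the submitters' processing notes place on GRCm39, Cd3g spans chr9:44880870-44891729 on the minus strand and Cd3d spans chr9:44893084-44898637 on the plus strand. The 2 genes start 1354 bases apart, head to head. Cd3e spans chr9:44910038-44920925 on the minus strand, 11400 bases beyond Cd3d. Cd247 lies elsewhere, at chr1:165616250-165704846 on the plus strand. The 250 bases before the start of these 4 genes are shown because their products form 1 complex and their reads are set against each other below. The sequences are RefSeq's on GRCm38.p6, a different build from the table, printed 5′ to 3′ in the direction of the gene. Capitals mark the ETS core GGAA and its reverse complement TTCC.
Cd3g (chr9:44980432-44980681, minus strand): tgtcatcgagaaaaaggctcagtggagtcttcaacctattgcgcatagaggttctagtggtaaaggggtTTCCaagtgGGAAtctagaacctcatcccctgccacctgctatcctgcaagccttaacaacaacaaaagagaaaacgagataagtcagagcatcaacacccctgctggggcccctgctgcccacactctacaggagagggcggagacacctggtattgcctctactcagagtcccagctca
Cd3d (chr9:44981536-44981785, plus strand): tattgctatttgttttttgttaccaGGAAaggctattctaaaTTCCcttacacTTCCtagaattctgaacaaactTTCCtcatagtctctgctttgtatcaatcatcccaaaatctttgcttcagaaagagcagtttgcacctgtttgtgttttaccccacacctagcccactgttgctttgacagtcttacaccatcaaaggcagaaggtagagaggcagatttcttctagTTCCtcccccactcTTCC
Cd3e (chr9:45009612-45009861, minus strand): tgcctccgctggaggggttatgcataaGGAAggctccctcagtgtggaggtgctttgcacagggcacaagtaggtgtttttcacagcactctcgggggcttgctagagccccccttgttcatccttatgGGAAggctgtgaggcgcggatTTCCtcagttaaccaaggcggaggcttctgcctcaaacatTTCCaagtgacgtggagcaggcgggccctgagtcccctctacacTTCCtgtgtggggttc
Cd247 (chr1:165788431-165788680, plus strand): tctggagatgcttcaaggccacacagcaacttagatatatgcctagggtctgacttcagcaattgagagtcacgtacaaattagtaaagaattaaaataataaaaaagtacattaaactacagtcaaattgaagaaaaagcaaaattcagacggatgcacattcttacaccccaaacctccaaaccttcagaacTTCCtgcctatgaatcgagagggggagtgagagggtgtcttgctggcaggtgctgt
The ETS core was present 2 times before Cd3g, 6 times before Cd3d, 5 times before Cd3e and 1 time before Cd247. It is a common word, found in 93.4% of the 32851 windows of this length in the table, with a median of 3 matches. The RUNX core TGTGGT or its reverse complement ACCACA occurred in 14% of all windows and in none of these 4. TATAAA or its reverse complement TTTATA, held by 12.4% of all windows, was also in none of the 4.

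Cd207 and Epcam are shown likewise, as the genes of Langerhans cells among the 9.
Cd207 (chr6:83677858-83678107, minus strand): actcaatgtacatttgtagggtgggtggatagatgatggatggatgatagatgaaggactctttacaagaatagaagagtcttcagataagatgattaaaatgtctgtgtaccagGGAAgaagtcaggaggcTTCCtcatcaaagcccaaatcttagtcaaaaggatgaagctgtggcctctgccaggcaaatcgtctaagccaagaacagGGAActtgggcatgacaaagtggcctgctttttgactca
Epcam (chr17:87635729-87635978, plus strand): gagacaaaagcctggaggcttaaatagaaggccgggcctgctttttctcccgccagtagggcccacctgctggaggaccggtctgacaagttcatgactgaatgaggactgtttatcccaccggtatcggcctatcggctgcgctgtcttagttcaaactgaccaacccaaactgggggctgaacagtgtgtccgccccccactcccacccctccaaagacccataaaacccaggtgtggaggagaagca
The ETS core occurred 3 times before Cd207 and 0 times before Epcam, and the RUNX core in neither. Of the 9 genes, 7 had an entry in this table. A match describes letters in the window and not a bound site.

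Cd207 had 454, 980 and 2028 counts in the vehicle libraries and 349, 145 and 0 in the rebamipide libraries. These were 9.09, 19.9 and 43.4 CPM against 11.5, 5.65 and 0 CPM. Vehicle replicate 1 lay below rebamipide replicate 1, so the groups overlapped. A count of 0 in rebamipide replicate 3 allows a level of up to 0.114 CPM (3 counts, covering counting error only, and too low a limit if both reads of a fragment were counted). The fitted log2 fold change was -2.08 ± 1.49 (SE, adjusted p = 0.330, edgeR), and without rebamipide replicate 3 it was -1.48 (adjusted p = 0.217). The gene lies at chr6:83648197-83654839 on the minus strand.

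Epcam had 5542, 5451 and 5472 counts in vehicle and 1008, 569 and 4 counts in rebamipide libraries. The vehicle libraries were nearly level, at 112.9 ± 3.56 CPM, whereas the rebamipide libraries had 33.2, 22.2 and 0.153 CPM. Every rebamipide library lay below every vehicle library. The fitted log2 fold change was -2.61 ± 1.34 (adjusted p = 0.195, edgeR). Without rebamipide replicate 3, the fold change was smaller and passed the test, at -2.02 (adjusted p = 0.0235), where 2.49% of all genes were called lower. The gene lies at chr17:87943407-87958557 on the plus strand. Relative to Epcam, Cd207 had 8.19, 18.0 and 37.1 reads per 100 Epcam reads in vehicle and 34.6 and 25.5 in rebamipide replicates 1 and 2, within the vehicle range, and 0 counts in replicate 3.

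**Figure D1:**
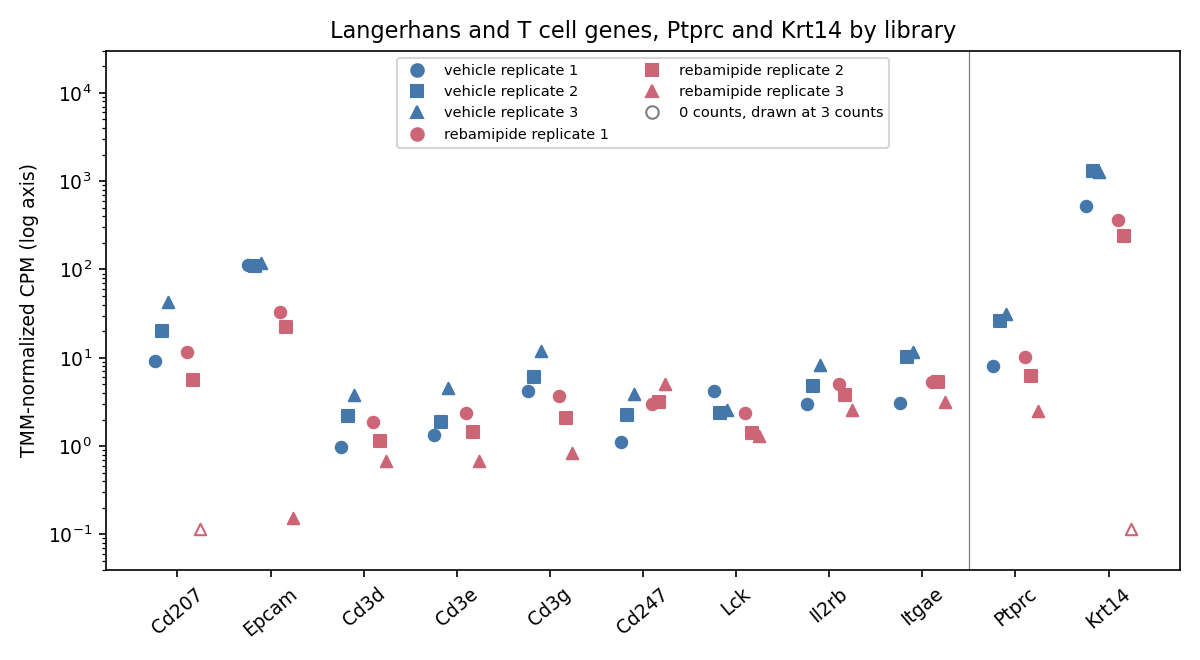
TMM-normalized CPM of the 9 genes, Ptprc and Krt14 in each library, on a log axis, with 1 symbol per mouse (blue vehicle, red rebamipide) and open symbols for 0 counts drawn at 3 counts. Epcam, Cd3g and Krt14 did not overlap between the groups, and Cd207, Epcam and Krt14 were at 0.153 CPM or less in rebamipide replicate 3 alone.

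Cd3g, the gamma chain, had 210, 301 and 561 counts in vehicle and 112, 54 and 22 in rebamipide libraries. The rebamipide values of 3.69, 2.1 and 0.840 CPM all lay under the lowest vehicle value of 4.21 CPM. For Cd3g the fit gave a log2 fold change of -1.75 ± 0.66 (adjusted p = 0.103, edgeR). With edgeR, Cd3g was the 1 gene of the 9 past the thresholds the study states, p under 0.05 before adjustment with a log2 fold change beyond 1 either way, against 14.5% of all genes lower and 14.3% higher by that rule. With DESeq2, the tool to which the study applied these thresholds, Cd3g and Epcam were past them, against 16.6% of all genes lower. At an unadjusted p-value under 0.05 alone Cd3g was also the 1 gene of the 9 with edgeR, against 18.8% of all genes lower and 20.9% higher. The adjusted p-value of Cd3g was 0.0314 with DESeq2, which called 15.1% of the 16792 genes with an adjusted p-value lower, and 0.034 with limma on log2(FPKM + 1), which called 30.7% lower and also called Epcam (adjusted p = 0.0336). Without rebamipide replicate 3 the fitted change of Cd3g was -1.35 (adjusted p = 0.187, edgeR), and DESeq2 no longer called it (-1.33, adjusted p = 0.0926). The DESeq2 call was also lost without rebamipide replicate 2 (-1.73, adjusted p = 0.136), vehicle replicate 2 (-1.91, adjusted p = 0.0561) or vehicle replicate 3 (-1.21, adjusted p = 0.194), beside a DESeq2 fold change of -1.78 on all libraries. DESeq2 called 9.27% to 25.2% of all genes lower when 1 library was left out.

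Cd3d, the delta chain, had 49, 108 and 179 counts in vehicle and 57, 29 and 18 in rebamipide libraries. Cd3e, the epsilon chain, had 66, 92 and 211 counts in vehicle and 72, 37 and 18 in rebamipide libraries. In both genes vehicle replicate 1 was under rebamipide replicate 1, so the groups overlapped. The fitted log2 fold changes were -0.92 ± 0.64 for Cd3d (adjusted p = 0.316, edgeR) and -0.77 ± 0.67 for Cd3e (adjusted p = 0.412). Vehicle replicate 3 held the highest value of both, and without it the fold changes were -0.34 and -0.06.

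Cd247, the zeta chain, had 55, 111 and 180 counts in vehicle and 91, 80 and 131 in rebamipide libraries. On the CPM scale these were 1.10, 2.25 and 3.85 against 3.00, 3.12 and 5.00, with overlap. The fit for Cd247 gave 0.62 ± 0.53 on the log2 scale (adjusted p = 0.406, edgeR), and with total counts alone as the scaling it was 0.01. The row of Cd247 overlaps that of Pou2f1, a transcription factor gene on the opposite strand. In the GRCm38 annotation, Pou2f1 exons cover 3007 of the 5329 exon bases of Cd247. The strand setting of the counting is not given in the sources used here, so reads from the shared stretch cannot be told apart. Pou2f1 had 868, 714 and 457 counts in vehicle and 116, 217 and 183 in rebamipide libraries.

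The 4 CD3 genes were compared within each library by their reads, a comparison chosen after their values were seen. Per 100 reads of Cd3e, Cd3d had 74.2, 117 and 84.8 reads in vehicle and 79.2 and 78.4 in rebamipide replicates 1 and 2, within the vehicle range, and replicate 3 had 18 reads of each. Per 100 reads of Cd3e, Cd3g had 318, 327 and 266 reads in vehicle and 156, 146 and 122 in rebamipide libraries, with every rebamipide library lower. Cd247 had 83.3, 121 and 85.3 reads per 100 of Cd3e in vehicle and 126, 216 and 728 in rebamipide libraries, with every rebamipide library higher. Of all genes tested, 5.92% were lower and 16.4% higher relative to Cd3e in every rebamipide library. The ratios of rebamipide replicate 3 rest on few reads, with 18 of Cd3e and 22 of Cd3g, and include the highest, 728 for Cd247.

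**Figure D2:**
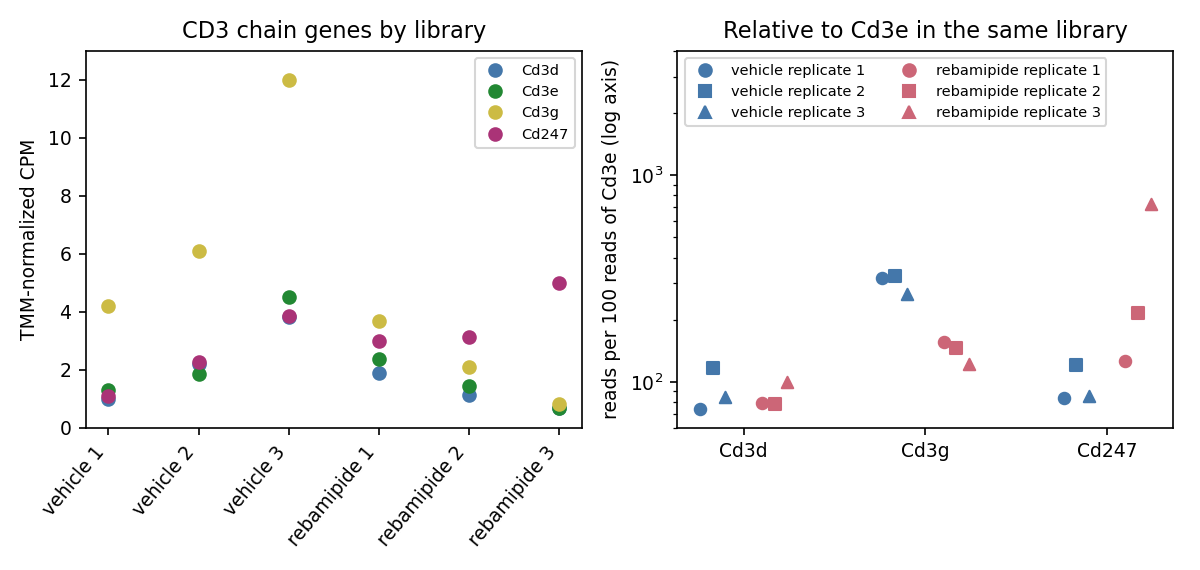
Left, TMM-normalized CPM of Cd3d, Cd3e, Cd3g and Cd247 in each library; right, reads of Cd3d, Cd3g and Cd247 per 100 reads of Cd3e in the same library, on a log axis, with 1 symbol per mouse. Cd3d kept to 74.2 to 117 reads per 100 of Cd3e in all libraries, whereas Cd3g was lower and Cd247 higher in each rebamipide library than in each vehicle library.

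Lck, the kinase that phosphorylates the CD3 chains, differed from the other T cell genes in its order among the vehicle mice. It had 210, 116 and 119 counts in vehicle and 72, 36 and 34 in rebamipide libraries, or 4.21, 2.36 and 2.54 CPM against 2.37, 1.40 and 1.30 CPM. Vehicle replicate 1, the lowest for Cd3d, Cd3e and Cd3g, was the highest for Lck. Rebamipide replicate 1 lay between vehicle replicates 2 and 3, so the groups overlapped by a narrow margin. With a fitted log2 fold change of -0.84 ± 0.43, Lck did not pass (adjusted p = 0.196, edgeR). Its position is chr4:129442137-129467434 on the minus strand.

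Il2rb, the beta chain shared by the IL-2 and IL-15 receptors, had 148, 239 and 385 counts in vehicle and 155, 98 and 68 in rebamipide libraries. The groups overlapped at 2.96 to 8.23 CPM against 2.60 to 5.10 CPM. Its log2 fold change was fitted at -0.48 ± 0.48 (adjusted p = 0.481, edgeR), and at -0.01 without vehicle replicate 3. The gene lies at chr15:78363456-78379471 on the minus strand.

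Itgae, the alpha-E integrin chain (CD103), had 153, 503 and 549 counts in vehicle and 162, 137 and 83 in rebamipide libraries. The rebamipide values of 5.34, 5.34 and 3.17 CPM all lay between vehicle replicate 1 at 3.06 CPM and vehicle replicate 2 at 10.2 CPM. Itgae had a fitted log2 fold change of -0.85 ± 0.55 (adjusted p = 0.282, edgeR). Itgae, at chr11:72981409-73038272 on the plus strand, contains Haspin on the opposite strand, but the 2 genes share 0 exon bases in the GRCm38 annotation.

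Of the 9 genes, 8 had a fitted change below 0, beside 8466 of all 14875 genes. The median log2 fold change was -0.85 for the 9 and -0.17 for all genes tested, and with total counts alone these were -1.44 and -0.78. In 2 of the 9, Cd3g and Epcam, every rebamipide library lay under every vehicle library, against 24.0% of all genes lower and 24.5% higher by that measure. The 2-sided exact permutation test on CPM of 3 against 3 mice cannot go below p = 0.1. Any gene without overlap has that value, as Cd3g and Epcam did. Without rebamipide replicate 3 the median was -0.64 for the 9 and -0.12 for all genes. The fitted changes were then smaller in size for Itgae (-0.64), Cd3d (-0.62), Lck (-0.68), Cd3e (-0.42), Il2rb (-0.25) and Cd247 (0.36), and Cd247 was again the 1 gene above 0.

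**Figure D3:**
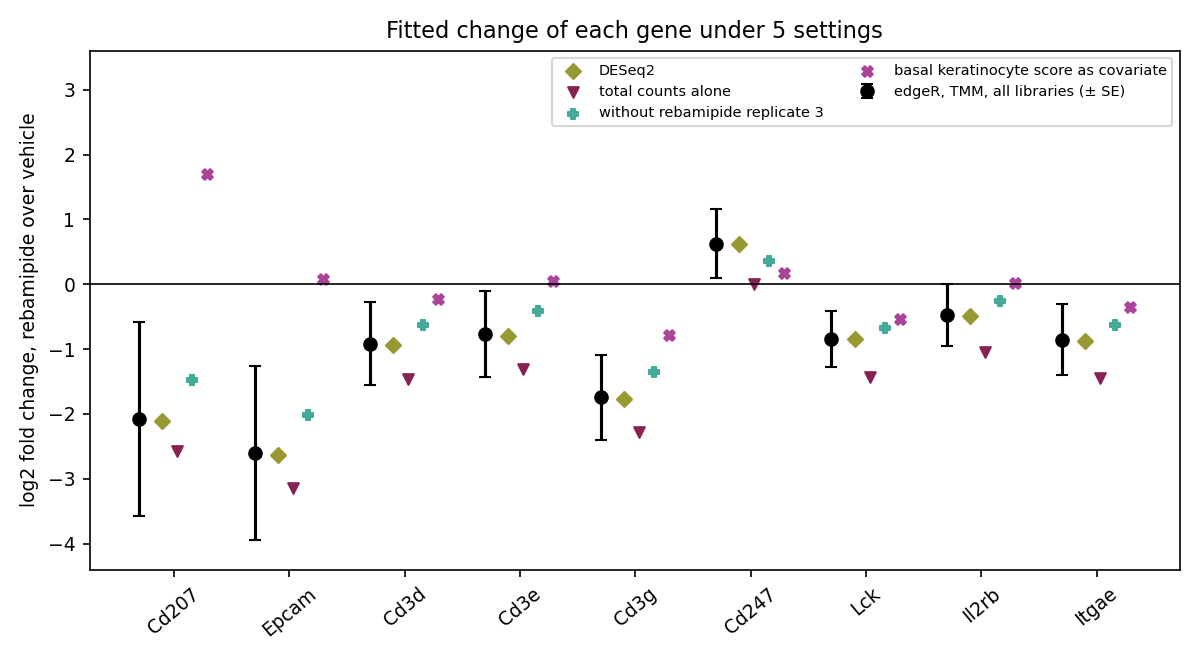
Fitted log2 fold change of rebamipide over vehicle for each gene with edgeR on all libraries (black, bars ± SE), and the same value with DESeq2, with total counts alone, without rebamipide replicate 3 and with the basal keratinocyte score as a covariate. Cd207 moved from -2.08 to 1.69 with the covariate (adjusted p = 0.391, edgeR), while Cd3g, Cd3d, Lck and Itgae lay below 0 in all 5 settings. The score, a mean log2 CPM, was 7.29 to 7.79 in vehicle and 0.812 to 6.35 in rebamipide libraries. It did not overlap between the groups, so the fit with the covariate cannot tell score and treatment apart.

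Levels between genes were compared per length, as FPKM, which divides counts by gene length and library size. In vehicle skin, Epcam was highest at 63.8 ± 1.33 FPKM, followed by Cd207 at 19.4 ± 13.7 FPKM. Below them, Cd3g at 2.80 ± 1.46, Itgae at 2.23 ± 1.21, Cd3d at 1.58 ± 0.933, Il2rb at 1.53 ± 0.729 and Lck at 1.29 ± 0.470 FPKM followed, and Cd3e at 0.772 ± 0.495 and Cd247 at 0.553 ± 0.306 FPKM were lowest. From Cd3g down to Lck, and between Cd3e and Cd247, neighbours in this order differed by less than their SD. The step from Lck to Cd3e was larger than the SD of either gene. For Cd247, 3007 of the 5329 bases are shared with Pou2f1 exons, so its place depends on how reads there were counted. In rebamipide skin the order began with Epcam at 7.21 ± 7.00 and Cd207 at 3.26 ± 3.53 FPKM, and the 7 T cell genes lay between 0.310 ± 0.210 FPKM for Cd3e and 0.824 ± 0.282 FPKM for Itgae.

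Krt14 itself had 26099, 64371 and 59493 counts in vehicle and 10954, 6102 and 0 in rebamipide libraries, a fitted log2 fold change of -2.37 ± 1.97 (adjusted p = 0.395, edgeR). Itgae had 0.586, 0.781 and 0.923 reads per 100 of Krt14 in vehicle and 1.48 and 2.25 in rebamipide replicates 1 and 2. Cd247 had 0.211, 0.172 and 0.303 reads per 100 of Krt14 in vehicle and 0.831 and 1.31 in those 2 libraries. Cd207 had 1.74, 1.52 and 3.41 in vehicle and 3.19 and 2.38 in rebamipide, within the vehicle range. Epcam had 21.2, 8.47 and 9.20 in vehicle and 9.20 and 9.32 in rebamipide, also within it. With the 0 count of Krt14 in rebamipide replicate 3 set to 3, Cd3d, Cd3e, Cd247, Il2rb and Itgae were higher relative to Krt14 in every rebamipide library, which is 5 of 9 genes against 58.5% of all genes. Without that library the count was also 5. Relative to the 10 basal keratinocyte genes, 6 of 9 were higher in every rebamipide library and 1 lower, against 64.9% and 0.706% of all genes. The shares among the 9 were thus near those of all genes, except for the 1 lower gene, Epcam.

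Relative to Ptprc (CD45), the phosphatase carried by all leukocytes, the 9 genes divided differently. Ptprc had 403, 1293 and 1447 counts in vehicle and 314, 158 and 66 in rebamipide libraries (log2 fold change -1.78 ± 0.68, adjusted p = 0.108, edgeR). Per 100 Ptprc reads, Itgae had 38.0, 38.9 and 37.9 reads in the vehicle libraries, nearly constant, and 51.6, 86.7 and 126 in the rebamipide libraries. Il2rb had 36.7, 18.5 and 26.6 reads per 100 of Ptprc in vehicle and 49.4, 62.0 and 103 in rebamipide libraries. Cd3d, Cd3e and Cd247 were also higher in every rebamipide library, which made 5 of 9 against 30.6% of all genes. Epcam was lower in every rebamipide library, against 1.24% of all genes, with 1375, 422 and 378 reads per 100 of Ptprc in vehicle and 321, 360 and 6.06 in rebamipide libraries. Each of these 6 had the smallest p of the exact permutation test, 0.1, as any gene without overlap does.

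These counts depended on the denominator. With the geometric mean of 12 leukocyte genes in its place, added after the data were seen, 1 of 9 genes (Cd247) was higher in every rebamipide library and 3 (Cd207, Epcam and Cd3g) were lower, against 18.1% and 6.36% of all genes. Cd3g had 33.2, 23.1 and 35.9 reads per 100 of that mean in vehicle and 15.7, 20.7 and 14.2 in rebamipide libraries. Cd207 had 71.8, 75.2 and 130 in vehicle and 48.9, 55.6 and at most 1.94 in rebamipide libraries.

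**Figure D4:**
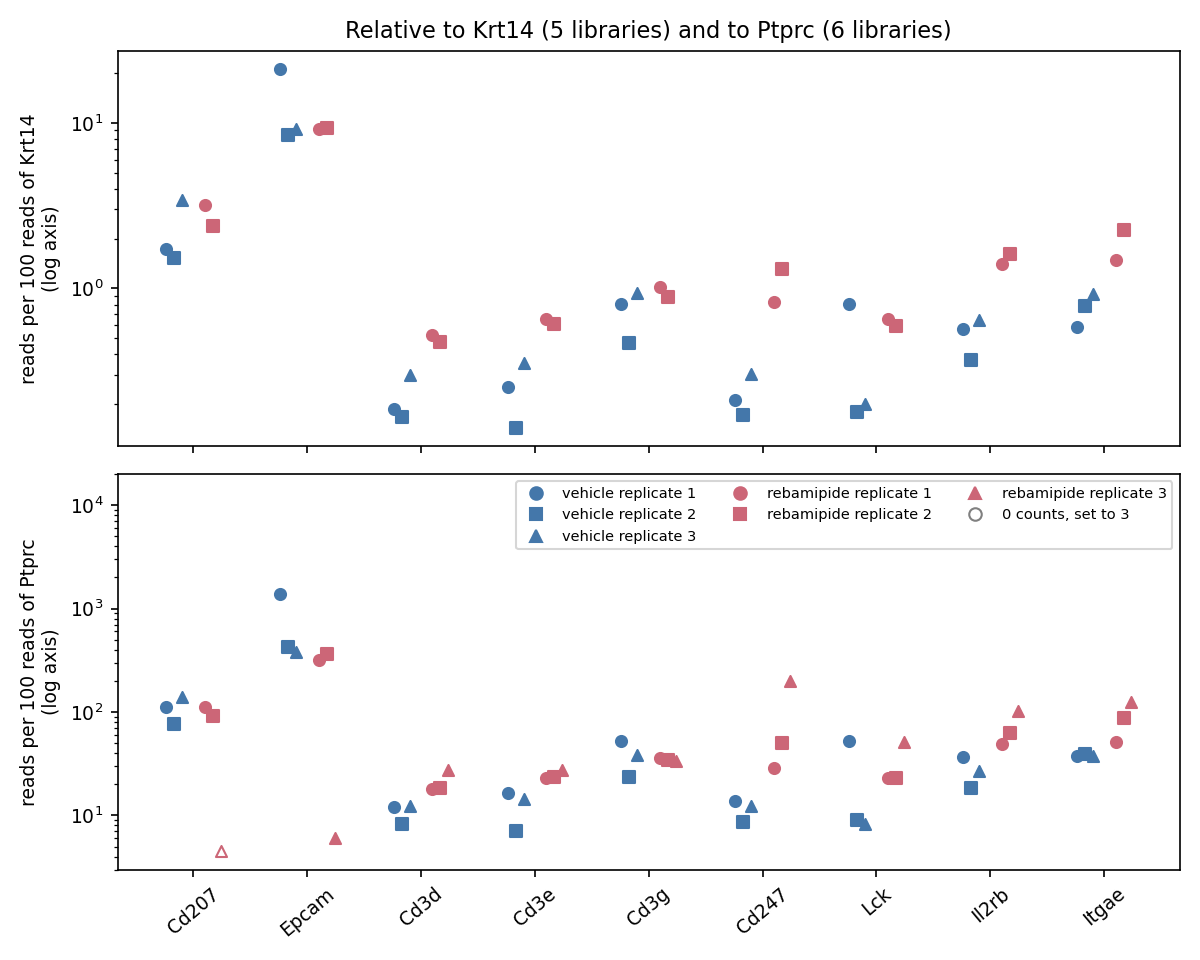
Reads of each gene per 100 reads of Krt14 (top, 5 libraries, since rebamipide replicate 3 had 0 Krt14 counts) and per 100 reads of Ptprc (bottom, 6 libraries), on log axes, with 1 symbol per mouse and an open symbol for a count of 0 set to 3. Itgae lay at 37.9 to 38.9 reads per 100 of Ptprc in vehicle and 51.6 to 126 in rebamipide libraries, and Cd207 lay within its vehicle range relative to Krt14.

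Across the 6 libraries, the pattern of log2 CPM of Cd207 was close to that of Krt14 (Pearson r = 0.992) and so was that of Epcam (r = 0.986), and Cd207 and Epcam had r = 0.979 with each other. Cd3d was closest to Il2rb (r = 0.983) and Cd3e (r = 0.961), and had r = 0.700 with Krt14. Cd3g lay between, with r = 0.853 with Krt14 and 0.961 with Ptprc. Cd247 had r between -0.82 and 0.222 with the other 8 genes. These values describe 6 libraries of 2 groups that also differ in depth and tissue makeup. Without rebamipide replicate 3, in which Cd207 and Krt14 both had 0 counts, 5 libraries remained. Cd207 then had r = 0.893 with Krt14, 0.695 with Epcam and 0.979 with Cd3g, and Epcam had r = 0.879 with Krt14. Cd3d had r = 0.974 with Il2rb and 0.943 with Cd3e, Cd3g had 0.915 with Krt14 and 0.916 with Ptprc, and Cd247 had -0.73 to 0.791 with the other 8 genes.

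Among 13378 genes with a mean of at least 50 counts, the 5 most like Cd207 by this measure were Klk9, A4gnt, Chil1, Dgat2l6 and Ces4a, each with r = 0.999. These 5 had 0 to 4 counts in rebamipide replicate 3, where Cd207 had 0, and their r without that library was not computed. Klk9 had 106, 245 and 435 counts in vehicle and 89, 46 and 0 in rebamipide libraries, the same order of mice as Cd207. The 5 most like Cd3e were Mup18 (r = 0.998), Nfkb2 (r = 0.987), Fbxo32 (r = 0.986), Larp6 (r = 0.986) and Slc8a1 (r = 0.985). Of these 10 genes, none had an adjusted p-value under 0.05 by edgeR.

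Further genes of Langerhans cells were taken from a list of 18, including Cd207 and Epcam. In the edgeR test 1 of the 18 passed as lower and 0 as higher, beside 6.51% and 14.1% of all genes. At an unadjusted p-value under 0.05, 2 were lower and 2 higher, beside 18.8% and 20.9% of all genes, and DESeq2 called 2 lower and 1 higher, beside 15.1% and 15.8%. The list median was -0.71 (log2). The lower gene was Tgfbr1, the type I receptor for TGF-beta, which Langerhans cells need to stay in the epidermis but which many cells make (log2 fold change -1.08 ± 0.26, adjusted p = 0.0352). Ly75 (DEC-205), an endocytic receptor of dendritic cells, had 3.18, 4.59 and 9.62 CPM in vehicle and 2.21, 1.36 and 0.458 CPM in rebamipide libraries, without overlap (-2.1 ± 0.70, adjusted p = 0.0785). The MHC class II genes H2-Eb1 and Cd74, shared with macrophages and dermal dendritic cells, had fold changes of -0.60 and -0.77 and overlapped. Tbc1d4, an insulin-responsive Rab regulator also made in fat and muscle, had a log2 fold change of 1.08 ± 0.36 (adjusted p = 0.0765). Of 10 dermal dendritic cell genes, Zbtb46, a transcription factor of conventional dendritic cells that endothelium also makes, rose by 2.25 ± 0.43 on the log2 scale (adjusted p = 0.0195, edgeR). With edgeR 0 of the 10 were lower, 1 was lower at an unadjusted p-value under 0.05, and DESeq2 called 1 lower and 1 higher. The other 9 had fitted changes below 0, including Xcr1 and Cd209a at -1.88 and -1.41. The 8 endothelial genes listed as other cells of the skin had 5 called higher, with a summed level of 237 to 558 CPM in vehicle and 1116 to 1607 CPM in rebamipide libraries. Their part in the change of Zbtb46 was not tested.

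Of 15 T cell coreceptor and surface genes, none passed at an adjusted p-value under 0.05 with edgeR, 1 was higher and 2 were lower at an unadjusted p-value under 0.05 (20.9% and 18.8% of all genes), and DESeq2 called 1 higher and 2 lower (15.8% and 15.1% of all genes). The median log2 fold change was -0.85. Cd8b1, the beta chain of the CD8 coreceptor, had 0.20, 0.325 and 0.299 CPM in vehicle and 0.790, 0.974 and 0.649 CPM in rebamipide libraries, without overlap (1.54 ± 0.45, adjusted p = 0.0572). Il7r, the receptor chain for IL-7, had a log2 fold change of -1.81 ± 0.68 (adjusted p = 0.101). Thy1, the gene that Thy1os is named after and a surface protein of T cells and fibroblasts alike, had 82.2, 86.4 and 111 CPM in vehicle and 80.3, 27.9 and 8.43 CPM in rebamipide libraries (-1.26 ± 0.74, adjusted p = 0.245). Of 13 genes of the receptor and CD3 complex, 9 receptor chain genes had no row under the listed names and were not analysed here.

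In the signalling chain that starts with Lck, 19 of 23 listed genes were tested, 1 was lower and 0 were higher with edgeR, beside 6.51% and 14.1% of all genes. At an unadjusted p-value under 0.05, 2 were lower and 0 higher (18.8% and 20.9% of all genes), and DESeq2 called 3 lower and 0 higher (15.1% and 15.8%). Fyn, the Src family kinase that works beside Lck in T cells and is made in many others, fell by 0.88 ± 0.22 on the log2 scale (adjusted p = 0.0412). Rasgrp1, which activates Ras below the receptor and is also found in keratinocytes, had 7.05, 17.6 and 17.8 CPM in vehicle and 4.54, 3.74 and 0.840 CPM in rebamipide libraries (adjusted p = 0.0686). Trat1, an adaptor of the receptor complex, had a fitted change of -2.87 ± 1.20 (adjusted p = 0.131). The median of the 19 was -0.72.

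The 15 genes of dendritic epidermal T cells, among them Il2rb and Itgae, all had fitted changes below 0, with a median of -1.14 beside -0.17 for all genes. None passed at an adjusted p-value under 0.05 with edgeR, 1 was lower at an unadjusted p-value under 0.05 (18.8% of all genes), and DESeq2 called 1 lower (15.1% of all genes). Klrk1 (NKG2D), the receptor for stress ligands on these cells, had 1.96, 2.96 and 5.94 CPM in vehicle and 1.58, 0.857 and 0.763 CPM in rebamipide libraries, without overlap (-1.76 ± 0.57, adjusted p = 0.0725). Xcl1, a chemokine, had a fitted change of -1.17 ± 0.50, and Areg, a growth factor that keratinocytes also make, one of -3.01 ± 1.38. The granzyme gene Gzmc had 2.06, 5.32 and 4.81 CPM in vehicle and 2.63, 0.468 and 0 CPM in rebamipide libraries, with overlap. The summed level of the list was 42.3 to 100.1 CPM in vehicle and 17.4 to 61.4 CPM in rebamipide libraries.

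Of 11 tested genes of IL-2 and IL-15 signalling, 3 were higher and 0 lower (edgeR), beside 14.1% of all genes higher. The list median was 0.72 (log2), or 0.12 with total counts alone, and 4 of the 11 had fitted changes below 0. The 3 higher genes were Stat5a, a transcription factor that the receptor activates (2.05 ± 0.39, adjusted p = 0.0203), Jak3, the kinase bound to the common gamma chain (2.34 ± 0.50, adjusted p = 0.0264), and Il15ra, which presents IL-15 to neighbouring cells (2.39 ± 0.57, adjusted p = 0.0348). Jak3 had 3.65 to 12.6 CPM in vehicle and 28.2 to 49.6 CPM in rebamipide libraries. The partner chain Il2rg stood like Il2rb, with a fitted change of -0.22. Stat5a and Il15ra are not genes of lymphocytes alone, and 6 of 8 brown fat genes were called higher in the same libraries, with a summed level of 214 to 384 CPM in vehicle and 4853 to 12572 CPM in rebamipide libraries. Their part in these rises was not tested. The edgeR calls of Stat5a, Jak3, Il15ra, Zbtb46, Tgfbr1 and Fyn were each lost without vehicle replicate 2 (adjusted p from 0.0987 to 0.136) and without rebamipide replicate 2 (0.0805 to 0.159). In these settings edgeR called 0 of 14964 and 1 of 15335 genes in all at an adjusted p-value under 0.05, with 4116 and 4062 genes at an unadjusted p-value under 0.05, while DESeq2 called 2662 and 1961 genes higher and 2114 and 1489 lower. The fitted changes were near those on all libraries, with Stat5a at 2.06 and 2.07, Jak3 at 2.30 and 2.26, Il15ra at 2.35 and 2.38, Zbtb46 at 2.1 and 2.22, Tgfbr1 at -1.12 and -1.23 and Fyn at -0.93 and -0.76. Without rebamipide replicate 3, Stat5a (adjusted p = 0.0484) and Zbtb46 (adjusted p = 0.0454) remained past the threshold and the other 4 did not. The fitted changes of those 4 were then 2.20 for Jak3, 1.96 for Il15ra, -1.15 for Tgfbr1 and -0.78 for Fyn. In that setting edgeR called 6.6% of all genes higher and 2.49% lower. Without vehicle replicate 1 the calls of Il15ra (adjusted p = 0.0783), Zbtb46 (0.0512), Tgfbr1 (0.0620) and Fyn (0.0995) were lost, and without vehicle replicate 3 those of Tgfbr1 (adjusted p = 0.0546) and Fyn (0.0857).

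Genes of epidermal ligands known to support these immune cells were taken as a list of 19 genes, all with fitted changes below 0 and a median of -2.75. None passed at an adjusted p-value under 0.05 with edgeR, 3 were lower at an unadjusted p-value under 0.05 (18.8% of all genes), and DESeq2 called 9 lower (15.1% of all genes). The Skint genes, made by keratinocytes and thymic epithelium, include Skint1, which selects the dendritic epidermal T cells. Skint4 had 2.42, 13.5 and 12.4 CPM in vehicle and 0.461, 1.64 and 0 CPM in rebamipide libraries, and Skint5 had 1.36, 5.62 and 6.61 CPM against 0.461, 0.857 and 0 CPM. Cdh1, the E-cadherin to which the Itgae product binds, had 418, 304 and 209 CPM in vehicle and 87.5, 42.4 and 1.07 CPM in rebamipide libraries. Of the 19 genes, 11 had 0 counts in rebamipide replicate 3. Ccl27a, a chemokine of keratinocytes, had a fitted change of -1.54 ± 0.58 and overlapped between groups.

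**Figure D5:**
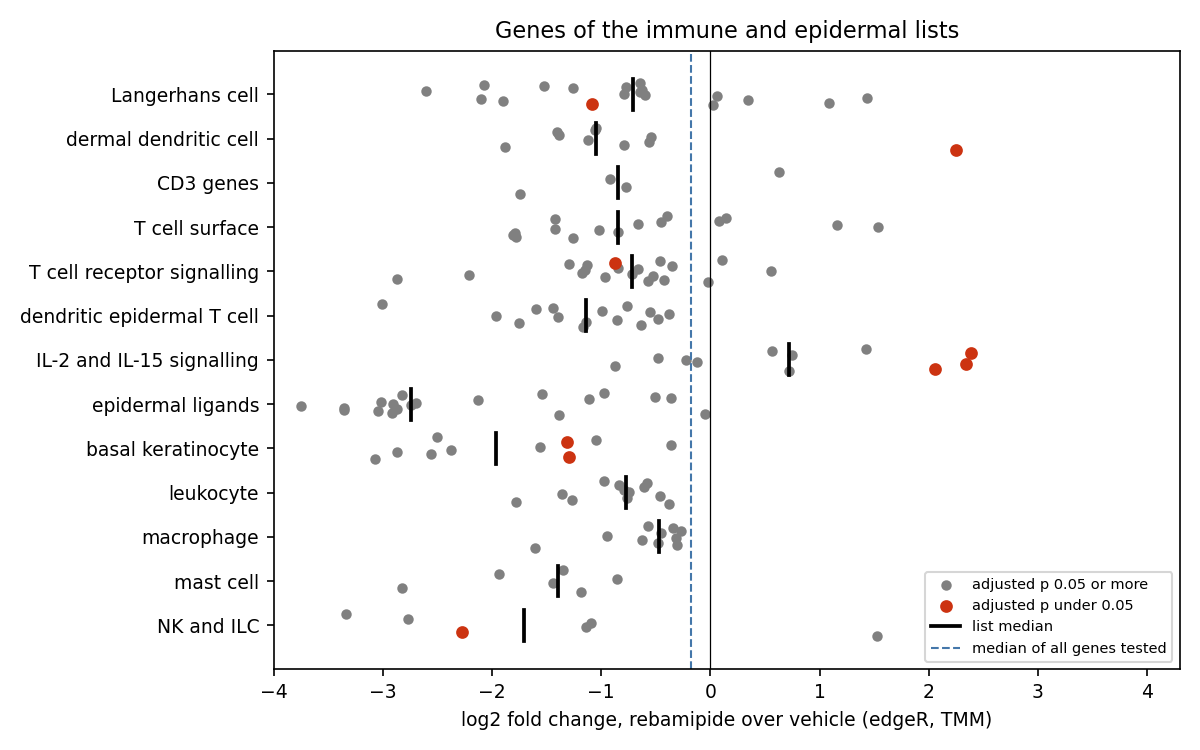
Fitted log2 fold change of each tested gene of 13 lists of immune and epidermal genes (points, red where the adjusted p-value was under 0.05), with the median of each list (black bars) and of all genes tested (dashed line at -0.17). The medians of these 13 lists run from -2.75 for epidermal ligands, -1.97 for basal keratinocyte, -1.71 for NK and ILC and -1.40 for mast cell genes to 0.72 for IL-2 and IL-15 signalling, and that of the dendritic epidermal T cell list is -1.14. The B cell list, with a median of 0.74, is not drawn.

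Other leukocytes stood as follows in the same libraries. The median of the 12 leukocyte genes was -0.78 (log2), with 0 called by edgeR, 2 lower at an unadjusted p-value under 0.05 (18.8% of all genes) and 1 lower by DESeq2 (15.1% of all genes). The 10 macrophage genes had a median of -0.47 and the 6 mast cell genes one of -1.40. In each of these lists edgeR called 0 genes and 1 gene was lower at an unadjusted p-value under 0.05, while DESeq2 called 1 macrophage gene and 2 mast cell genes lower. Among 6 genes of natural killer and innate lymphoid cells, with a median of -1.71, Rora was called lower, and among 4 tested B cell genes, Cd79a was called higher (log2 fold changes of -2.28 and 3.11). With edgeR, 6.51% of all genes were lower and 14.1% higher. At an unadjusted p-value under 0.05, 2 of those 6 were lower, and DESeq2 called 2 lower. By both measures 1 B cell gene was higher (20.9% and 15.8% of all genes). The 7 listed B cell genes summed to only 1.04 to 2.03 CPM in vehicle and 2.88 to 4.61 CPM in rebamipide libraries. Without vehicle replicate 2 or rebamipide replicate 2, where edgeR called 0 and 1 of all genes, neither passed. Their fitted changes there were -2.17 and -2.56 for Rora (adjusted p = 0.0788 and 0.0573) and 3.12 and 3.27 for Cd79a (adjusted p = 0.102 and 0.0722). The call of Cd79a was lost also without rebamipide replicate 3, at a fitted change of 2.75 (adjusted p = 0.0549). At 4 tested genes, the B cell list had a median of 0.74, and 0.98 without rebamipide replicate 3. The other list medians named here were smaller in size without that library, at -0.43 for leukocyte, -0.12 for macrophage, -0.94 for mast cell, -1.64 for natural killer and innate lymphoid cell, -0.48 for Langerhans cell, -0.62 for dermal dendritic cell, -0.56 for T cell surface, -0.54 for T cell receptor signalling, -0.76 for dendritic epidermal T cell and -2.18 for epidermal ligand genes, and 0.71 for IL-2 and IL-15 signalling. Without that library edgeR called 2 of the 8 endothelial genes higher, beside 6.6% of all genes. The summed leukocyte level was 208 to 543 CPM in vehicle and 101 to 401 CPM in rebamipide libraries, and their part in the values of the 9 genes was not tested.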

How the data were processed

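Full-thickness dorsal skin of 6 mice was measured by RNA-seq, with 1 library per mouse. The authors deposited whole-number read counts per gene without normalization, and FPKM values computed from them. The submitters' processing notes name fastp 0.22.0, HISAT2 2.1.0, HTSeq 0.9.1 and GRCm39. The strand setting is not given in the sources used here. Among genes with 1 to 20 counts, 73.8% to 76.3% of counts were even, so low counts appear to hold both reads of a fragment and rest on fewer molecules than the number printed.

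Groups, taken from the labels, were tested with edgeR 4.0.16 under R 4.3.3 (filterByExpr, TMM scaling, quasi-likelihood test, Benjamini-Hochberg adjustment over 14875 genes), with DESeq2 1.42.0 and limma 3.58.1 as alternatives. The tests were also run on simulated counts with a single fixed spread for all genes, a check that does not cover the spread of these replicates. The SE is the log2 fold change divided by the square root of F. Ratios were tested with the exact permutation test, with 0 counts set to 3. Total counts per library were 32709801 to 39915276. Replicates of a group differed by more than sampling noise (chi-square divided by its degrees of freedom was 79.1 to 714). The labels give no batch.

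The 9 genes and the 19 lists were chosen with earlier results of these data known. Named from each list are at most 3 genes chosen by lowest p-value and 2 by highest FPKM, besides all 9 genes, Krt14, Ptprc, Thy1 and the 5 genes most like Cd207 and Cd3e. Pou2f1, Haspin, Il2rg, Skint1 and Ucp1 were named after their values were seen. Columns of gene annotation were not tested.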

Additional observations from a re-analysis of the deposited data

How the results depend on the processing

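Depth limits values at low counts, with 18 counts each of Cd3d and Cd3e, 4 of Epcam and 0 of Cd207 in rebamipide replicate 3, and 3 mice a group limit all 9. The number of genes called lower at an adjusted p-value under 0.05, 0 with edgeR, was 1 with DESeq2 (Cd3g), 2 with limma on log2(FPKM + 1) (Cd3g -1.24, Epcam -3.66), and 0 to 1 with edgeR when 1 library was left out, against 0.0% to 12.8% of all genes (Epcam without rebamipide replicate 3, whose fold change ranged from -3.33 to -2.02). DESeq2 with 1 library left out, added after the data were seen, called 0 to 3, against 9.27% to 25.2% of all genes lower. Without rebamipide replicate 1 it called Cd3g (-2.35, adjusted p = 0.00244), Epcam (-3.37, adjusted p = 0.0368) and Lck (-1.16, adjusted p = 0.0262), where 25.2% of all genes were lower. Without vehicle replicate 1 it called Cd3g (-2.06, adjusted p = 0.023) and Itgae (-1.27, adjusted p = 0.00294), and without rebamipide replicate 3 Epcam (-2.0, adjusted p = 9.92e-08). DESeq2 on all libraries gave Cd3g -1.78.

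By the thresholds the study states, 1 gene was lower with edgeR (14.5% of all genes), 3 with total counts alone (30.4%), 2 with DESeq2 (16.6%), 2 with limma-voom (15.2%), 3 with limma on log2(FPKM + 1) (20.1%), 0 with the basal keratinocyte covariate (5.47%), 0 to 2 with edgeR less 1 library (9.29% to 19.8%) and 0 to 3 with DESeq2 less 1 library (12.4% to 22.0%). The count higher was 0, and 0 to 1 with DESeq2 less 1 library (Cd247 without vehicle replicate 3, beside 14.1% of all genes). With the basal keratinocyte score as a covariate the fitted change turned above 0 for Cd207 (1.69), Epcam (0.0759), Cd3e (0.0537) and Il2rb (0.0207), and the cause was not tested. Adjusted p-values of these genes were then 0.391 to 0.989 (edgeR). The score did not overlap between the groups, so this fit cannot tell score and treatment apart. Cd207 and Epcam were not tested under the filter that asked for 10 counts in each library.

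Of 184 tested context list genes, 19 were called higher (14.1% of all genes) and 5 lower (6.51%). The shares of all genes moved with the setting, so the counts are not results about the lists alone. The count higher was 1 with the covariate (0.161% of all genes), 0 to 24 with edgeR less 1 library (0.0% to 18.3%, and 0 list genes without vehicle replicate 2 or rebamipide replicate 2) and 19 to 29 with DESeq2 less 1 library (12.2% to 21.5%). The count lower was 20 with total counts alone (25.2%), 3 without a filter (4.5%), 13 with 10 counts in each library (11.9%), 30 with DESeq2 (15.1%), 38 with limma on log2(FPKM + 1) (30.7%), 0 with the covariate (0.0%), 0 to 19 with edgeR less 1 library (0.0% to 12.8%) and 8 to 72 with DESeq2 less 1 library (9.27% to 25.2%, with 28 list genes without vehicle replicate 1). The count of genes higher relative to Ptprc was 5, and 1 with the 12 leukocyte genes.

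Replicate numbers were shared between the groups but did not pair the mice, with correlations of 0.011, -0.04 and 0.022 between same-numbered deviations. With the replicate block, 0 of the 9 genes were called, 0 were past the thresholds the study states (14.0% of all genes were lower by them), and 3 context genes were lower (5.75% of all genes).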
